A study of Saccharomyces cerevisiae with 12 samples.

Results

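Mitochondrial ribosomal protein genes were followed in yeast with wild-type histone H2B and in the H2B R95A mutant, with and without rapamycin. The members were the 54 genes, of 5449 with a tested probe set, whose single annotated symbol is MRPL, MRPS or RSM followed by a number. They comprise 34 genes of the large subunit (MRPL) and 20 of the small subunit (9 MRPS and 11 RSM), and each had 1 probe set. All 54 symbols matched a gene of the RefSeq R64 annotation, on 14 chromosomes. Other proteins of the same ribosome carry names such as MRP7, IMG1 or PET123, which the rule does not take, and 23 of these were examined beside the members.

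The mitochondrial ribosome translates the few messages of the mitochondrial genome, which encode mainly core subunits of the respiratory chain and of the ATP synthase. Its proteins are almost all encoded in the nucleus, made in the cytosol and imported, and they assemble on ribosomal RNAs transcribed inside the organelle. Part of them descend from bacterial ribosomal proteins, and part were added during the evolution of mitochondria. Cytosolic ribosomal proteins form a different gene set, whose transcription depends on the TOR kinases, the targets of rapamycin. Of the 54 members, 33 are homologues of a bacterial ribosomal protein and 21 were assigned none.

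The 4 groups were H2B WT untreated, H2B WT with rapamycin, H2B R95A untreated and H2B R95A with rapamycin, each of 3 arrays numbered as replicates 1, 2 and 3. In H2B R95A alanine replaces the arginine at residue 95 of histone H2B. Rapamycin was given at 200 ng/ml for 30 min to exponential cultures. Per the study's strain table, the H2A/H2B collection was built in the MATa strain FY406, in which the hta1-htb1 pair is replaced by LEU2 and the hta2-htb2 pair by TRP1, so that mutant and wild type alike live on histones from a plasmid. That background also carries mutant alleles of HIS3, LEU2, URA3, TRP1 and LYS2. The mutant is represented by this substitution strain alone, and the sources used here do not say whether the replicates were separate cultures, so the p-values measure only the spread between these arrays.

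The unit throughout is the deposited log2 signal, on which a difference of 1 is a 2-fold change. The median signal of the tested probe sets of an array lay between 7.25 and 7.30. Over all 10928 probe sets the median of an array lay between 4.01 and 4.62. HTB1, an H2B gene, read 11.98 to 12.40 over the 12 arrays and HTB2, the other H2B gene, 5.44 to 6.07, and neither probe set shows the substitution itself. Members' mean signals ran from 5.84 for RSM22 to 9.46 for MRPS12, with a median of 7.80. These are the brightnesses of different probe sets and give no order of mRNA amounts. All lay far above the array's 38 S. pombe probe sets with names of the same pattern, whose highest single value was 1.71. Over all 1746 S. pombe probe sets the highest single value was 3.57. HTB2, however, belongs to a gene pair that the strain table gives as replaced. RSM22, from 5.18 to 6.47 over the arrays, lies above all S. pombe values but spans the HTB2 readings. What the HTB2 signal comes from was not tested, so a clear detection of RSM22 is not shown. In such bulk RNA, fewer cells expressing a gene and less RNA per cell cannot be told apart.

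The mean over the 54 members moved little between groups and more between arrays of the same group. In H2B WT untreated it was 7.82, 7.69 and 8.04 in replicates 1, 2 and 3 (7.85 ± 0.18, SD, n = 3), and in H2B WT with rapamycin 7.51, 7.69 and 7.94 (7.71 ± 0.22, SD, n = 3). In H2B R95A untreated it was 7.96, 7.73 and 8.10 (7.93 ± 0.19, SD, n = 3), and in H2B R95A with rapamycin 7.71, 7.92 and 8.10 (7.91 ± 0.20, SD, n = 3). Replicate 3 was the highest array in each of the 4 groups, and all groups overlapped. The 122 cytosolic ribosomal protein genes were more widely spread, from 8.14 in H2B R95A rapamycin replicate 3 to 10.62 in H2B R95A untreated replicate 2.

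**Figure D1:**
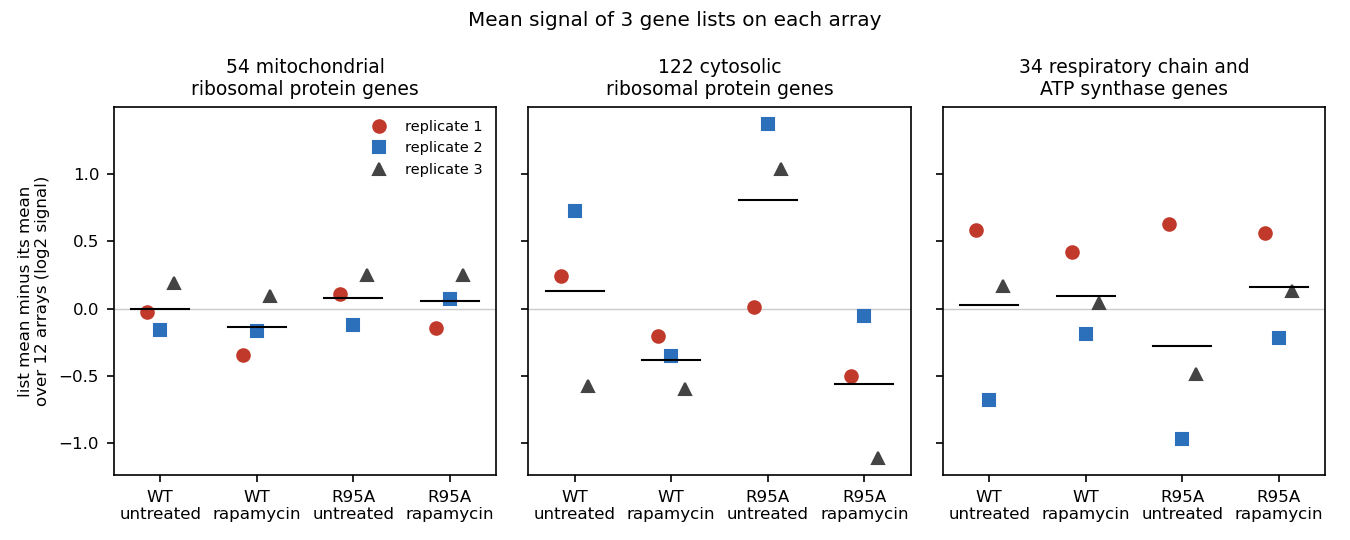
Mean log2 signal of 3 gene lists on each of the 12 arrays, minus the list's own mean over the arrays. Points are arrays, with colour and shape for the replicate number, and the black lines are group means. Replicate 3 is the highest array of the mitochondrial ribosomal protein genes in each of the 4 groups, and replicate 1 the highest of the respiratory chain genes.

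The same contrast was seen gene by gene. The SD over the 12 arrays had a median of 0.28 among the members, from 0.15 for MRPL1 (homologue of bacterial L1) to 0.52 for MRPL40 (homologue of L24), against 0.75 among cytosolic ribosomal proteins and 0.38 over all tested probe sets. When each gene's variation was divided, the group accounted for a median of 20.0% among the members and the replicate number for 48.9%. The replicate number took the larger share in 39 of the 54. For cytosolic ribosomal proteins the medians were 53.7% for the group and 24.4% for the replicate number, and over all tested probe sets 26.3% and 38.1%. These shares are descriptions, with no test between the lists.

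The first comparison was that of the untreated strains, which asks what the R95A substitution does to these genes before the drug. Among the members 33 had a positive and 21 a negative difference, H2B R95A minus H2B WT, and the median difference was 0.04, against -0.04 over all tested probe sets, of which 45.2% were positive. The large subunit genes had a median of 0.12 and the small subunit genes one of 0.00. None passed limma's test at an adjusted p under 0.05, where 0.4% of all tested probe sets did in either direction. At an unadjusted p under 0.05 limma gave 2 members, both higher in the mutant, where 4.93% of all tested probe sets had such a p, while cyber-T and limma with array weights called 0 after adjustment.

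The 3 largest differences were in large subunit genes with no bacterial homologue assigned. MRPL3, an RNase III-like protein of the large subunit, read 6.95, 6.34 and 6.62 in H2B WT untreated and 7.28, 6.94 and 7.39 in H2B R95A untreated. Its lowest mutant value, that of replicate 2, lay just below the highest wild-type value, so the groups overlapped. The difference was 0.57 (SE 0.21, 95% interval 0.11 to 1.03), with a limma p of 0.0187 and an adjusted p of 0.733.

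MRPL20 read 6.81, 6.39 and 6.77 in H2B WT untreated and 7.01, 6.84 and 7.81 in H2B R95A untreated. All 3 mutant arrays lay above all 3 wild-type arrays, and replicate 3 of the mutant stood well above the other two. The MRPL20 difference was 0.56 (SE 0.26, limma adjusted p = 0.733), and that of MRPL27, also a large subunit protein, was 0.53 (SE 0.23, limma adjusted p = 0.733). Arrays of the mutant were all above those of the wild type in 4 members and all below in 0, where 2.69% of all tested probe sets were all above and 4.22% all below. At the other end, MRPL51 had a difference of -0.25 (95% interval -0.98 to 0.48), MRPL40 one of -0.24 and MRPL33, the homologue of L30, one of -0.22. The 95% interval lay within a 2-fold change for 49 of the 54 members, or 90.7%, against 56.2% of all tested probe sets. In the same fit the cytosolic ribosomal proteins had a median of 0.66, positive in 121 of 122, with 0 past limma's test and 6 at an unadjusted p under 0.05. Their list mean was 9.50, 9.98 and 8.68 in H2B WT untreated and 9.27, 10.62 and 10.29 in H2B R95A untreated. The mutant was thus the lower in replicate 1, and replicate 3 of the wild type was the lowest of the 6 arrays.

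Between the strains treated with rapamycin, the differences of the members were small and almost all of 1 sign. H2B R95A was the higher in 53 of the 54, where 53.9% of all tested probe sets were, and the median difference was 0.21, against 0.02 over all tested probe sets. The sign held in 33 of 34 large subunit genes (median 0.21) and in all 20 small subunit genes (median 0.20). H2B R95A was also the higher in 20 of the 23 other mitochondrial ribosomal proteins and 17 of 19 mitochondrial translation and assembly factors. It was so in 29 of 34 respiratory chain and ATP synthase genes, 11 of 14 translational activators and 8 of 13 mitochondrial tRNA synthetases. The medians of these lists were 0.18, 0.10, 0.05, 0.05 and 0.05. Among cytosolic ribosomal proteins 21 of 122 were positive. None of the members passed limma's test, where 0.346% of all tested probe sets did, and 1 had an unadjusted p under 0.05 (background 1.51%). The counts by cyber-T and with array weights were also 0.

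The sign is that of the deposited scale. Centring the arrays on 12 poly-A spike-in probe sets, which moves every probe set of an array by the same amount, shifted the overall median by -0.37 in this comparison, and the members' median then stood at -0.16, with 3 of 54 positive. The study's methods do not mention adding spike-in RNA. The spike-in means ran from 4.35 to 5.93 over the arrays, with both ends in H2B R95A untreated. The members' median lay 0.19 above that of all tested probe sets, a distance that such centring leaves in place by construction. Since all members were read on the same 6 arrays, a shared sign is no count of independent events. Leaving out 1 array at a time, the median ran from 0.09 to 0.30 and the members that were positive from 40 to 54. The 40 came without replicate 1 of H2B WT with rapamycin, where the distance from all tested probe sets fell to 0.08. Without replicate 3 of H2B R95A with rapamycin 43 were positive. Without replicate 1 of every group, an alternative chosen after seeing the data, 50 of 54 were positive with a median of 0.22.

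MRPL35, a large subunit protein with no bacterial homologue assigned, read 7.12, 7.33 and 7.49 in H2B WT with rapamycin and 7.56, 7.85 and 7.93 in H2B R95A with rapamycin. The groups did not overlap. Its difference was the largest of the members, 0.46 (SE 0.19, 95% interval 0.03 to 0.89), with a limma p of 0.0372 and an adjusted p of 1.

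MRPL4, the homologue of bacterial L29, read 7.13, 6.96 and 7.08 in H2B WT and 7.77, 7.16 and 7.35 in H2B R95A under rapamycin. Here too the groups did not overlap, with the mutant's replicate 1 the highest of the 6. The difference was 0.37 (SE 0.20, limma adjusted p = 1), and with the replicate number as a block MRPL35 and MRPL4 were the 2 members at an unadjusted p under 0.05 (background 2.87%). MRPL15, which like MRPL3 resembles RNase III, had a difference of 0.40 (SE 0.27, limma adjusted p = 1) with overlapping groups. Mutant arrays were all above wild-type arrays in 7 members (MRPL35, MRPL4, MRPL20, MRPL11, MRPL36, MRPL3 and RSM26) and all below in 0, where 1.64% of all tested probe sets were all above and 2.75% all below. The exception in sign was MRPL25, at -0.02 (95% interval -0.54 to 0.51). MRPS18 and MRPL23, the homologues of S11 and L13, were at 0.00. The 95% interval lay within a 2-fold change for 51 members, or 94.4%, against 71.7% of all tested probe sets.

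The response to rapamycin was then measured within each strain. In H2B WT 43 members had a negative and 11 a positive change, with a median of -0.15, against 0.04 over all tested probe sets, of which 43.7% were negative. Negative changes were seen in 24 of 34 large subunit genes and 19 of 20 small subunit genes. None of the members passed limma's test, as 0% of all tested probe sets did in this comparison, and 1 member, MRPL35, was lower at an unadjusted p under 0.05 (background 4.27%). Cyber-T and array weights called 0 members. The replicate numbers paired in this comparison, and with the number as a block limma had 6 members lower at an unadjusted p under 0.05, where 9.2% of all tested probe sets had such a p, and 0 after adjustment. The 6 were RSM25, RSM22, MRPL35, MRPL15, MRPL28 and MRPS5, each lower with rapamycin in 3 of 3 pairs.

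RSM25, a small subunit protein with no bacterial homologue assigned, had the largest decrease in mean, from 6.84, 6.99 and 7.85 untreated to 6.26, 6.37 and 7.24 with rapamycin. Replicate 3 was the highest of both groups and the groups overlapped, but within the numbers the changes were -0.57, -0.62 and -0.60, close to each other. The change was -0.60 (SE 0.34, 95% interval -1.34 to 0.14, limma adjusted p = 1), and with the replicate block its SE was 0.19 and its interval -1.02 to -0.18 (limma adjusted p = 0.444).

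RSM22, a protein related to methyltransferases, read 6.15, 5.86 and 6.11 untreated and 5.71, 5.18 and 5.60 with rapamycin, with no overlap. These readings lie around those of HTB2, 5.44 to 6.07. The RSM22 change was -0.54 (SE 0.30, limma adjusted p = 1). MRPL35 read 7.67, 7.91 and 7.92 untreated and 7.12, 7.33 and 7.49 with rapamycin, again with no overlap. The MRPL35 change was -0.52 (SE 0.19, 95% interval -0.94 to -0.09), with a limma p of 0.0223 and an adjusted p of 1. The wild-type rapamycin arrays of MRPL35 are thus the ones that stand low in both of its comparisons, which share them.

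Rapamycin arrays of H2B WT were all below untreated arrays in 5 members (RSM22, MRPL35, MRPL28, MRPL11 and MRPL4) and all above in 0, where 3.73% of all tested probe sets were all below and 3.97% all above. The largest positive changes were 0.29 for MRPL23 (95% interval -0.28 to 0.86), 0.26 for MRPS18 and 0.18 for MRPL51. The 95% interval lay within a 2-fold change for 49 members, against 65.6% of all tested probe sets. The median rests partly on 1 array: without replicate 1 of H2B WT with rapamycin it was -0.00.

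In H2B R95A the members split evenly, 27 with a positive and 27 with a negative change where 59.8% of all tested probe sets were positive, with a median of -0.01 against 0.10 over all tested probe sets. The large subunit genes had a median of -0.08 and the small subunit genes one of 0.07. None passed limma's test (0 at an unadjusted p under 0.05), and cyber-T and array weights called 0 of them as well, although these called 4.64% and 18.7% of all tested probe sets. Limma called 0% of all tested probe sets here, but 17.3% had an unadjusted p under 0.05 and 5.15% reached the study's threshold, a 2-fold change with an unadjusted p of at most 0.01. No member reached that threshold.

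The cytosolic ribosomal proteins changed by a median of -1.33 in the same arrays, with 121 of 122 negative, 51 lower at the study's threshold and 106 lower at an unadjusted p under 0.05, although 0 passed limma's test after adjustment. The 40 ribosome biogenesis factors of the cytosolic ribosome had a median of -2.12, with 26 lower at the study's threshold. In H2B WT these medians were -0.47 and -1.09. The untreated replicate 3 of H2B WT already lay near the treated arrays, at 8.68 for the ribosomal proteins and 5.63 for the biogenesis factors. The treated arrays of H2B WT read 8.66 to 9.05 and 5.50 to 6.29. The 95% interval of a member's change lay within 2-fold for 48 of 54 in H2B R95A, against 50.5% of all tested probe sets and 4 of 122 cytosolic ribosomal proteins.

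**Figure D2:**
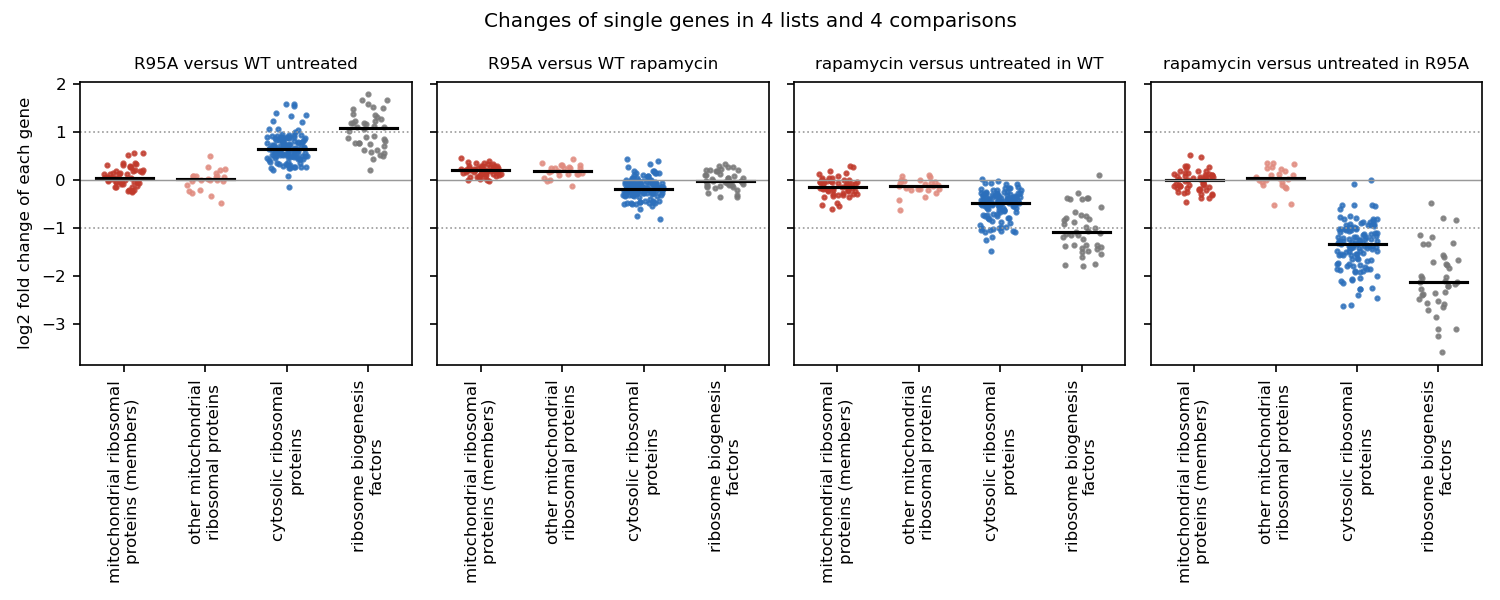
Log2 fold change of each gene (points) in 4 lists for the 4 comparisons between groups, with the median of the list as a black line and dotted lines at a 2-fold change. All 54 members lie inside the dotted lines in each comparison, while cytosolic ribosomal proteins reach a median of -1.33 with rapamycin in H2B R95A.

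Among single members of the mutant, MRPS18 read 8.59, 7.94 and 8.40 untreated and 8.68, 8.81 and 8.87 with rapamycin. The groups did not overlap, and the low untreated value of replicate 2 was the lowest of the 6. The MRPS18 change was 0.47 (SE 0.23, 95% interval -0.03 to 0.98), with a limma p of 0.062 and an adjusted p of 0.31. MRPL51 read 8.50, 7.33 and 8.17 untreated and 8.49, 8.26 and 8.81 with rapamycin, a difference of 0.52 (95% interval -0.21 to 1.25, limma adjusted p = 0.439) with overlapping groups. Replicate 2 was the lowest untreated array for both genes in H2B WT as well.

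The most negative changes in the mutant were -0.46 for MRPL20 (SE 0.26, limma adjusted p = 0.378), -0.38 for RSM25 (SE 0.34, limma adjusted p = 0.586) and -0.37 for MRPL11, the homologue of L10 (SE 0.20, limma adjusted p = 0.373). MRPL11 read 7.73, 7.64 and 8.32 untreated and 7.57, 7.51 and 7.50 with rapamycin. Its groups did not overlap, and the untreated replicate 3 lay apart from the other two. Rapamycin arrays were all below untreated arrays in 3 members (RSM25, MRPL11 and RSM26) and all above in 1, MRPS18, where 9.37% and 8.51% of all tested probe sets were.

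**Figure D3:**
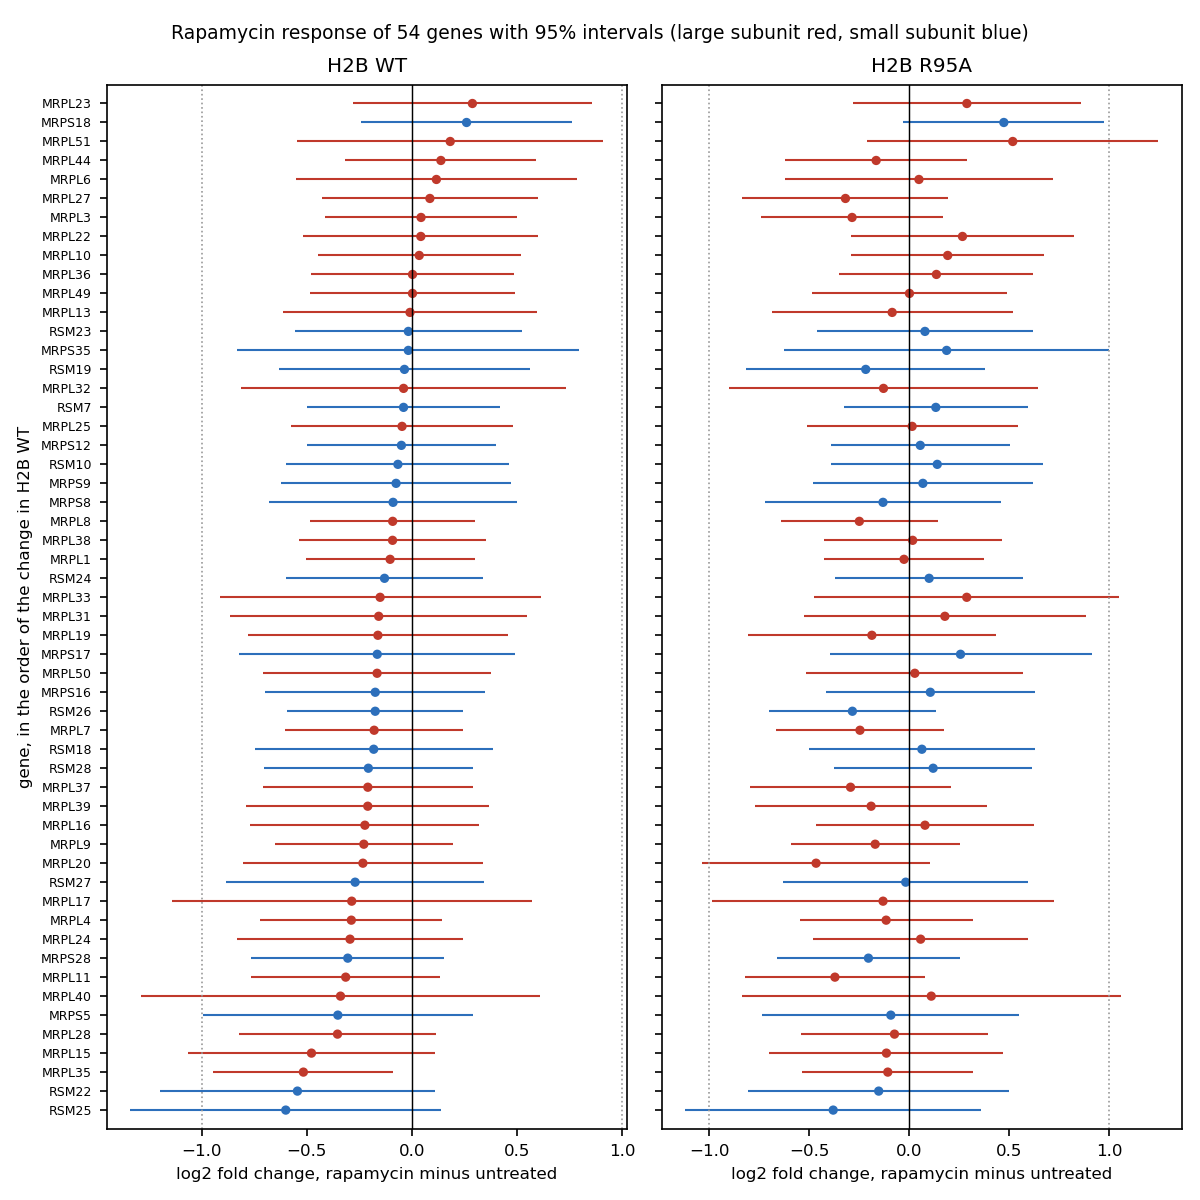
Log2 fold change with rapamycin (x axis) of each of the 54 members in H2B WT (left) and H2B R95A (right), with 95% intervals from limma and genes in the order of the change in H2B WT. Points are estimates from 3 arrays against 3, red for the large and blue for the small subunit, and dotted lines mark a 2-fold change. The interval excludes 0 for MRPL35 alone, in H2B WT, before adjustment for the number of probe sets.

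Whether the strains differed in their response was tested as the response in H2B R95A minus that in H2B WT. Of the members 38 were positive and 16 negative, where 56% of all tested probe sets were positive, with a median of 0.15 against 0.05 over all tested probe sets. None passed limma's test, as 0% of all tested probe sets did, and 0 had an unadjusted p under 0.05 (background 0.146%), the smallest being 0.164 for MRPL35 at 0.41 (95% interval -0.19 to 1.02). Array weights also called 0, and cyber-T was not run on this difference. The values ran from -0.40 for MRPL27 and -0.33 for MRPL3 to 0.44 for MRPL33 and 0.45 for MRPL40. The intervals were wide here, within 2-fold for only 30 members (55.6%, against 33.3% of all tested probe sets), so a 2-fold difference lay inside the interval of the other members. The cytosolic ribosomal proteins had a median of -0.84 in this difference, negative in 121 of 122, with 0 past limma's test or at an unadjusted p under 0.05. The low replicate 3 of H2B WT untreated, at a list mean of 8.68, enters this difference too.

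The replicate number was examined next, since it accounted for more of the members' variation than the group did. Neither the labels nor the methods say what the numbers stand for. In a fit of group and replicate number, with 4 arrays for each number, the members of replicate 1 had a median of -0.29 relative to replicate 3, against -0.00 over all tested probe sets, and 42 of the 54 were lower, where 50% of all were. Limma's test was passed by 21 members that were lower in replicate 1, where 16.4% of all tested probe sets were called lower, and by 0 that were higher, where 14.8% were. The 21 comprised 13 large and 8 small subunit genes, and 25 members were lower in replicate 1 in each of the 4 groups (background 21.2%). The count was 0 with spike-in centring, where 1.75% of all tested probe sets were called lower and all 54 members were negative. It was 12 without replicate 3 of H2B WT with rapamycin (where 9.73% of all tested probe sets were called lower). From the 6 arrays of H2B WT alone it was 12 (14.1%), and from the 6 of H2B R95A alone 0 (0.0728%). Of the 21 calls, 12 were lost under none of 17 alternatives but spike-in centring.

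MRPL40, the homologue of bacterial L24, showed the largest difference. It read 7.15, 8.15 and 8.63 in replicates 1, 2 and 3 of H2B WT untreated, 6.85, 7.76 and 8.31 of H2B WT with rapamycin, 7.36, 7.76 and 8.10 of H2B R95A untreated, and 7.44, 7.98 and 8.14 of H2B R95A with rapamycin. Replicate 1 was the lowest and replicate 3 the highest array in each group, and the 4 values of replicate 1 did not overlap those of the other numbers. Replicate 1 minus replicate 3 was -1.09 (SE 0.16, limma adjusted p = 0.00141), and MRPL40 alone reached the study's threshold (background 7.73%). Its replicate 1 minus replicate 2 was -0.71 (SE 0.16, limma adjusted p = 0.00894).

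MRPL17, a large subunit protein with no bacterial homologue assigned, behaved alike. It read 6.87, 7.77 and 8.01 in H2B WT untreated, 6.62, 7.48 and 7.70 in H2B WT with rapamycin, 6.93, 7.87 and 7.61 in H2B R95A untreated, and 6.88, 7.48 and 7.67 in H2B R95A with rapamycin. The replicate 1 values, all under 7, did not overlap the rest. The difference was -0.92 from replicate 3 (SE 0.13, limma adjusted p = 0.00108) and -0.83 from replicate 2 (SE 0.13, limma adjusted p = 0.0016).

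The small subunit gave the next, MRPS35, with 6.77, 7.25 and 7.37 in H2B WT untreated, 6.42, 7.41 and 7.52 in H2B WT with rapamycin, 6.79, 7.20 and 7.50 in H2B R95A untreated, and 6.64, 7.74 and 7.68 in H2B R95A with rapamycin. Replicate 1 again lay below all other arrays. The difference from replicate 3 was -0.86 (SE 0.14, limma adjusted p = 0.00264) and from replicate 2 -0.74 (SE 0.14, limma adjusted p = 0.00451). In limma's fit of group means no comparison had any of these 3 genes past an unadjusted p of 0.05. That fit leaves the replicate differences in its spread, with SEs of 0.43 for MRPL40, 0.39 for MRPL17 and 0.37 for MRPS35. The 3 were picked by those differences, so this is no test of number against group.

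The other 18 members called lower in replicate 1 than in replicate 3 ran from -0.85 to -0.35. They include MRPL32 (homologue of L32, -0.85), RSM25 (-0.72), MRPL23 (-0.57), MRPS9 (homologue of S9, -0.52), MRPL25 (-0.49), RSM23 (homologue of the GTP-binding protein DAP3 of human mitochondria, -0.49), MRPL15 (-0.46) and MRPL35 (-0.35). The calls of MRPL15 and MRPL35 held in only 5 and 8 of the 17 alternatives. The highest value in this comparison was 0.26 for MRPL37 (95% interval -0.03 to 0.55, limma adjusted p = 0.154).

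Between replicates 1 and 2 the members parted in both directions, 27 positive and 27 negative, with a median of -0.00 against 0.03 over all tested probe sets. Limma called 8 members lower in replicate 1 (background 15.2%) and 4 higher (background 18.3%). Of the 8, MRPL17, MRPS35 and MRPL40 are given above, and the others were MRPL32 (-0.60), MRPL13 (-0.48), MRPS9 (-0.46), RSM23 (-0.41) and MRPS5 (-0.40). The call of MRPS5 held in 4 and that of RSM23 in 9 of the 17 alternatives. All 12 calls were lost with spike-in centring, where 1% of all tested probe sets were called lower and 1.44% higher. From the 6 arrays of H2B WT alone 2 members were called lower (background 8.69%) and 0 higher (9.68%).

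The 4 that were higher in replicate 1 were MRPL39, RSM22, MRPL37 and MRPL9. MRPL39, the homologue of bacterial L33, read 9.08, 8.23 and 8.70 in H2B WT untreated, 8.58, 8.19 and 8.60 in H2B WT with rapamycin, 9.15, 8.45 and 8.98 in H2B R95A untreated, and 8.81, 8.44 and 8.77 in H2B R95A with rapamycin. Replicate 2 was the lowest array of each group, and replicates 1 and 3 lay close to each other. The MRPL39 difference between replicates 1 and 2 was 0.58 (SE 0.12, limma adjusted p = 0.00577), against 0.14 between replicates 1 and 3 (95% interval -0.12 to 0.40, limma adjusted p = 0.391). RSM22 was higher in replicate 1 than in replicate 2 by 0.54 (SE 0.16, limma adjusted p = 0.0293), MRPL37 by 0.43 (limma adjusted p = 0.0305) and MRPL9 by 0.33 (limma adjusted p = 0.0268). These 3 calls held in 10, 8 and 8 of the 17 alternatives, being lost on leaving out several single arrays. MRPL33 had the largest positive difference, 0.59, and missed the threshold (SE 0.23, limma adjusted p = 0.0742).

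Between replicates 2 and 3, 53 of the 54 members were lower in replicate 2, where 58.6% of all tested probe sets were, with a median of -0.29 against -0.06. Limma called 0 members after adjustment, as it did 0% of all tested probe sets, and 27 were lower at an unadjusted p under 0.05, where 11.6% of all tested probe sets were. With array weights 18 were called lower, as were 12.5% of all tested probe sets, and without replicate 1 of H2B R95A untreated 8 were, as were 5.91%. Replicate 2 was below replicate 3 in each of the 4 groups in 34 members (background 23.6%), among them MRPL51 (-0.69, SE 0.18, limma adjusted p = 0.187), RSM25 (-0.64, SE 0.16, limma adjusted p = 0.187) and RSM22 (-0.58, SE 0.16, limma adjusted p = 0.187). The exception in sign was MRPL38, the homologue of L14, at 0.11 (95% interval -0.23 to 0.45).

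**Figure D4:**
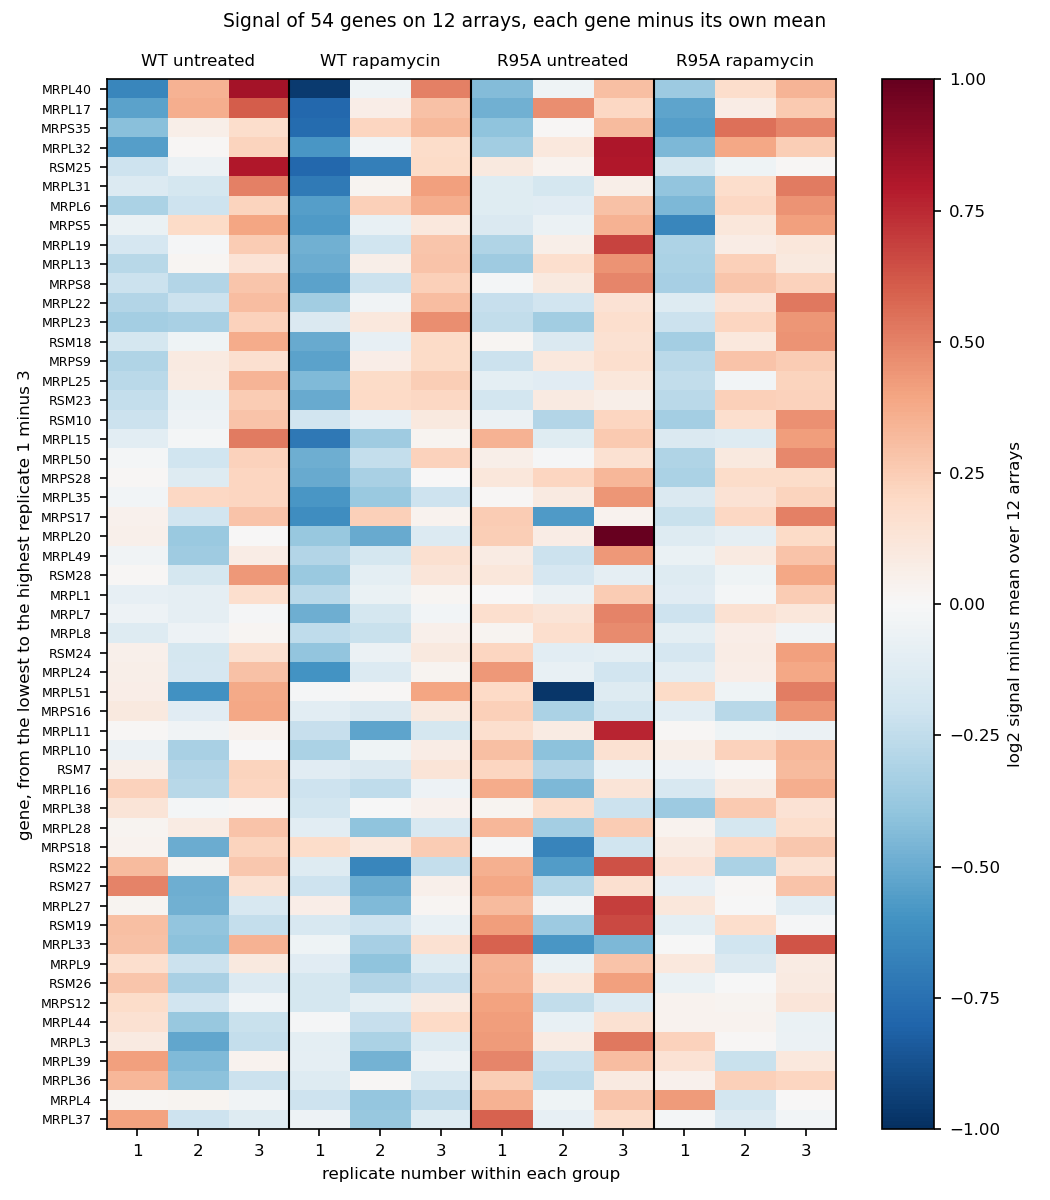
Log2 signal of each of the 54 members (rows) on the 12 arrays (columns), as the difference from the gene's own mean over the arrays, red for higher and blue for lower, with differences beyond 1 drawn as 1. Rows run from the most negative replicate 1 minus replicate 3 at the top, and vertical lines part the 4 groups. In the row of MRPL40 (-1.09) the first column of each of the 4 groups is blue and the third red.

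Gene sets outside the mitochondrial ribosome moved with the replicate number on a larger scale. The 14 glucose-repressed genes, which include genes of gluconeogenesis and of alternative carbon sources, had a list mean of 10.39 to 10.67 in the 4 arrays of replicate 1 and of 6.35 to 8.59 in the other 8. Limma called 13 of the 14 higher in replicate 1 than in replicate 2 (background 18.3%) and 13 higher than in replicate 3 (background 14.8%). In each of these comparisons it called 1 gene of the list lower, at -0.95 and -0.99 (background 15.2% and 16.4%). The 34 nuclear genes of the respiratory chain and ATP synthase were higher in replicate 1 than in replicate 2 by a median of 1.03. Of these, 33 were called higher (background 18.3%). Relative to replicate 3 they were higher by a median of 0.52, with 16 called higher (background 14.8%) and 0 lower (16.4%). The members had medians of -0.00 and -0.29 in those comparisons, 0 of them being called higher than in replicate 3. The part of these gene sets in the members' differences was not tested.

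The 23 other mitochondrial ribosomal proteins had much the same values as the members. Their medians were 0.02 between the untreated strains, 0.18 between the treated strains, -0.13 with rapamycin in H2B WT and 0.05 with rapamycin in H2B R95A, with 0 past limma's test in any of these and at most 1 in a comparison at an unadjusted p under 0.05. Between replicates 1 and 3 their median was -0.39, with 9 called lower (background 16.4%) and 0 higher (14.8%).

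Other components of mitochondrial translation were read with rapamycin as well. The 19 translation and ribosome assembly factors had medians of 0.05 in H2B WT and 0.26 in H2B R95A. The 13 mitochondrial tRNA synthetases had medians of 0.21 and 0.32, and the 14 translational activators, which act on single mitochondrial messages, of 0.11 and 0.24. None of the genes of these 3 lists passed limma's test in a comparison of groups. In limma 2 of each list were higher with rapamycin in H2B R95A at an unadjusted p under 0.05, where 393 of 5498 tested probe sets were. Their medians were thus positive in both strains, as were those of all tested probe sets, 0.04 and 0.10. The 0.05 of the assembly factors in H2B WT lay near that overall value. The members had medians of -0.15 and -0.01, and the difference between lists was not tested.

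The members are scattered over the genome, and MRPS12 and RSM19, the homologues of S12 and S19, were the only pair of neighbouring genes. MRPS12 read 9.65, 9.27 and 9.44 in H2B WT untreated, 9.29, 9.37 and 9.56 in H2B WT with rapamycin, 9.87, 9.21 and 9.33 in H2B R95A untreated, and 9.50, 9.49 and 9.59 in H2B R95A with rapamycin, so that all groups overlapped. RSM19 read 7.73, 7.03 and 7.18, then 7.26, 7.22 and 7.35, then 7.84, 7.06 and 8.09, and finally 7.33, 7.60 and 7.41 in the same order of groups. For both genes the untreated replicate 1 was above the untreated replicate 2 in each strain. That order is not particular to the pair, since MRPL39 and MRPL33 among other members had it too, while MRPL40 had the opposite one. With rapamycin the order of replicates 1 and 2 differed between MRPS12 and RSM19 in each strain.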

How the data were processed

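RNA of 12 samples, 3 in each of 4 groups, was read on 1-colour Affymetrix yeast arrays. The authors normalized the scans with robust multi-array average, which corrects the background and normalizes by quantiles, and deposited log2 signals per probe set. The genome build behind the probe sets is not given in the sources used here. All columns were mapped to a sample. Of 10928 probe sets, the 5498 annotated with 1 S. cerevisiae gene were tested. The number of arrays limits the precision, and with 3 arrays a group the smallest p that an exact permutation test allows is 0.1.

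Calculations used R 4.3.3 and limma 3.58.1. A mean was fitted per group, with variances moderated along a trend on mean signal. Replicate numbers were compared in a fit of group plus number. P-values were adjusted by Benjamini-Hochberg over the 5498 probe sets. A probe set was called at an adjusted p under 0.05. The study's threshold is a 2-fold change with an unadjusted p of at most 0.01. The method was tested on simulated data. Cyber-T, named in the study's methods, was run with a window of 101 and a confidence of 10.

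Genes were named by rule: the 3 highest and 3 lowest members in each comparison, in mean signal and in SD over the arrays, and members against the sign of the median where these were 5 or fewer. Not all are printed, and others were chosen after their values were seen. The members, the gene lists and the tests were chosen with earlier results of these data known. The gene lists were the cytosolic ribosomal proteins, ribosome biogenesis factors, other mitochondrial ribosomal proteins, mitochondrial translation and assembly factors, tRNA synthetases, translational activators, respiratory chain and ATP synthase genes, and glucose-repressed genes.

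To see whether equal replicate numbers mark pairs, deviations of arrays from their group means were correlated across probe sets. Replicates 1, 2 and 3 gave 0.88, 0.78 and 0.74 for the treated strains and 0.84, 0.41 and 0.77 for the drug in H2B WT, so numbers paired in these comparisons. For the untreated strains the values were 0.57, 0.83 and 0.06, and for the drug in H2B R95A 0.42, 0.48 and 0.01. Replicate 3 did not pair in these comparisons, and unlike numbers correlated too. Untreated mutant replicate 3 gave 0.53 with untreated wild-type replicate 2. In H2B R95A treated replicate 2 gave 0.48 with untreated replicate 3, as much as with its own number.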

Additional observations from a re-analysis of the deposited data

How the results depend on the processing

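The 5 comparisons between groups had 0 members past the test under each alternative that was run: a replicate block, median and spike-in centring, a filter on dim probe sets, no variance trend, array weights, cyber-T (not run on the difference of responses), only the arrays compared, each array left out in turn and, chosen after seeing the data, no replicate 1. With rapamycin in H2B R95A some of these settings called many of all tested probe sets: 18.7% with array weights, 4.64% with cyber-T, 13.2% without replicate 1 of H2B R95A untreated and 13% without replicate 1 of every group. The replicate block cannot move the differences in this balanced design and changed no member's call after adjustment. It raised the members at an unadjusted p under 0.05 from 2, 1, 1, 0 and 0 to 5, 2, 6, 4 and 1 in the order of the comparisons, and their background to 14.4%, 2.87%, 9.2%, 33.2% and 1.35%. The median lay between -0.02 and 0.15 for the untreated strains without 1 array, between 0.09 and 0.30 for the treated strains, between -0.24 and -0.00 with rapamycin in H2B WT, between -0.13 and 0.12 with rapamycin in H2B R95A, and between 0.04 and 0.27 for the difference of responses. Spike-in centring gave medians of -0.16 between the treated strains and -0.23 with rapamycin in H2B R95A, where it shifted the overall median by -0.37 and -0.22. Between replicates 1 and 2 it gave a median of -0.24 with 0 higher and 0 lower (background 1.44% and 1%). Between replicates 1 and 3 the median was -0.64 with 0 lower (background 1.75%). It had shifted the overall median by -0.24 and -0.35. The members' distance from all tested probe sets, which such centring leaves in place, stayed at -0.29 between replicates 1 and 3. The spike-in means themselves ran from 4.35 to 5.93 over the arrays. Array weights, whose estimate stopped before it converged in the fit of replicate numbers, gave 19 lower between replicates 1 and 2, 35 lower between 1 and 3 and 18 lower between 2 and 3, where 24.4%, 33.6% and 12.5% of all tested probe sets were called lower. Without 1 array, 1 to 7 members were higher and 5 to 12 lower between replicates 1 and 2 (median -0.10 to 0.10), 12 to 25 were lower between 1 and 3 (median -0.35 to -0.23), and 0 to 8 were lower between 2 and 3 (median -0.35 to -0.22). The 12 came without replicate 3 of H2B WT with rapamycin, and the 25 and the 8 without replicate 1 of H2B R95A untreated. With the 6 arrays of H2B WT alone, chosen after seeing the data, 0 were higher and 2 lower between replicates 1 and 2, and 12 lower between 1 and 3. With the 6 of H2B R95A alone, 0 were higher and 0 lower between 1 and 2, and 0 lower between 1 and 3, where 0.891% and 0.236% of all tested probe sets were called in either direction, against 18.4% and 25.2% in H2B WT alone. The cause of that contrast was not tested. Averaging a gene's probe sets could give no other value, since each member has 1 probe set.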
